A study of Mus musculus with 2 samples.

Results

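The 6 loci described here encode miR-9 (Mir9-1, Mir9-2 and Mir9-3) and miR-124 (Mir124a-1, Mir124a-2 and Mir124a-3), a pair of microRNAs of neuronal fate whose mature sequences are each encoded at 3 places in the mouse genome. They were taken as the rows whose Ensembl gene identifier carries one of these names in GENCODE M21, 6 of the 2202 annotated microRNA loci. The tissue was left cerebral cortex, dissected at an age of 14 days from females of B6CASTF1/J, the first-generation hybrid of C57BL/6J and a CAST strain, and RNA below 30 nt was sequenced. There was 1 group of 2 biological replicates, with no treatment and no second tissue. The label of replicate 1 mentions several females and that of replicate 2 a single one, both carry the same donor record, and no animal is named, so the spread between them may in part be technical. Values are whole read counts on the RNA strand, and CPM are those reads per 1000000 reads assigned to a microRNA locus, not divided by length, since the RNA counted was below 30 nt.

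MicroRNAs are cut from a hairpin precursor, and 1 or both arms of the stem enter an Argonaute protein, where bases 2 to 8, the seed, pair with target messages. In the mammalian brain miR-124 is known as a microRNA of differentiated neurons that represses non-neuronal messages such as that of the splicing regulator Ptbp1, and its genes are repressed by REST outside neurons. miR-9 is known from neural progenitors and neurons. Its 5p arm targets the progenitor nuclear receptor Tlx (Nr2e1), and in human cells each of its arms has been tied to the REST and CoREST repressor complex.

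The sequences matter here because reads that mapped to several places were counted in a row of their own, apart from the loci. The 6 members were looked up by name in the RefSeq microRNA sequences (build GRCm38.p6, the assembly called mm10). Entries were found for 3 of the 6, namely Mir9-1, Mir9-2 and Mir9-3. The mature arms of miR-9 are shown with the seed in capitals, since both are what a neuron would hold whichever locus it used.
mmu-miR-9-5p: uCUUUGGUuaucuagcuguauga
mmu-miR-9-3p: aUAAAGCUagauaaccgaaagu
No other mature mouse microRNA in the RefSeq table had either seed. The hairpins are shown with both mature arms in capitals, so that the lower case letters are the bases in which the loci can differ.
Mir9-1: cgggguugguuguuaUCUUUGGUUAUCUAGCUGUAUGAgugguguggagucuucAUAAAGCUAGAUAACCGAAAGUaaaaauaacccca
Mir9-2: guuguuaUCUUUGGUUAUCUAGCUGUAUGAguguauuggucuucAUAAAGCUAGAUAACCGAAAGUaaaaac
Mir9-3: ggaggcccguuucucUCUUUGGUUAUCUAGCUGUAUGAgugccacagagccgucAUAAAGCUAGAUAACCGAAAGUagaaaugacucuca
Both arms are identical in the 3 hairpins, so a read that ends at the annotated arm fits 3 places and cannot be given to one of them.

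The miR-9 loci lie on different chromosomes, all on the plus strand of mm10. Mir9-1 (ENSMUSG00000106493.1, chr3:88215598-88215686, 89 nt) lies in an intron of the non-coding gene Gm3764. Mir9-2 (ENSMUSG00000065424.2, chr13:83738814-83738885, 72 nt) lies within an exon of the non-coding C130071C03Rik. Mir9-3 (ENSMUSG00000093238.1, chr7:79505264-79505353, 90 nt) lies in an intron of the host transcript Mir9-3hg.

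The miR-124 loci are likewise dispersed and on the plus strand. Mir124a-1 (ENSMUSG00000065597.1, chr14:64590657-64590741, 85 nt) lies within an exon of Mir124a-1hg, also known as Rncr3. Mir124a-2 (ENSMUSG00000093073.1, chr3:17795662-17795770, 109 nt) overlaps an exon of Mir124-2hg over 27 nt. Mir124a-3 (ENSMUSG00000065454.2, chr2:180894040-180894107, 68 nt) overlaps an exon of the non-coding Gm27032 over 3 nt.

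Replicate 1 held 7745369 reads, of which 2740332 were assigned to a microRNA locus, and replicate 2 held 9627908, of which 3207941 were assigned. Reads that mapped to several places were 3142330 in replicate 1, or 40.6% of that library, and 3645348 in replicate 2, or 37.9%, and the files do not say which loci they fit. Among markers of cell types, the 4 neuronal loci Mir132, Mir137, Mir134 and Mir212 were all counted, at 1.79% and 1.85% of assigned reads in replicates 1 and 2. Mir126a of endothelium held 1.67% and 0.939%, Mir143 and Mir145a of smooth muscle and pericytes 0.447% and 0.422%, and the 3 oligodendrocyte loci 0.428% and 0.148%. The 4 microglial and leukocyte loci held 0.0691% and 0.123%, the 2 erythroid loci 0.0952% and 0.0564%, Mir122 of liver 0.00609% and 0.00430%, and the 8 muscle loci 0.00420% and 0.00577%. Of the muscle loci Mir1a-1, Mir1a-2, Mir133a-1 and Mir133a-2 were at 0 in both libraries, and each of these shares at least 20 nt with another locus. The part of these cell types in the values of the 6 loci was not tested, and in a tissue fewer cells of a type and less RNA per cell cannot be told apart.

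The 3 miR-9 loci held far more counted reads than the 3 miR-124 loci, and both families were small beside the reads set aside. The miR-9 loci held 328 reads in replicate 1 (exact Poisson 95% interval 293 to 365) and 473 in replicate 2 (431 to 518). The miR-124 loci held 11 reads (5.49 to 19.7) in replicate 1 and 29 (19.4 to 41.6) in replicate 2. In each library the interval of miR-9 lay wholly above that of miR-124.

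On the CPM scale miR-9 summed to 134 ± 19.6 and miR-124 to 6.53 ± 3.55 (SD, n = 2). There were 29.8 reads at miR-9 loci for each read at a miR-124 locus in replicate 1 (exact conditional binomial 95% interval 16.4 to 60.3), and 16.3 in replicate 2 (11.2 to 24.6). The ratio compares reads that could be placed at 1 locus and is no ratio of the mature microRNAs. No molecular identifiers are stated, so the intervals express counting error alone.

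Set against the reads that mapped to several places, the counted reads of the 6 loci were few. They numbered 339 in replicate 1, which is 108 for each 1000000 reads that mapped to several places, and 502 in replicate 2, which is 138. For each counted miR-9 read there were 9580 reads that mapped to several places in replicate 1 and 7707 in replicate 2. For each counted miR-124 read there were 285666 and 125702. These ratios bound nothing about either microRNA, because the share of the set-aside reads that came from miR-9 or miR-124 is not in the files.

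**Figure D1:**
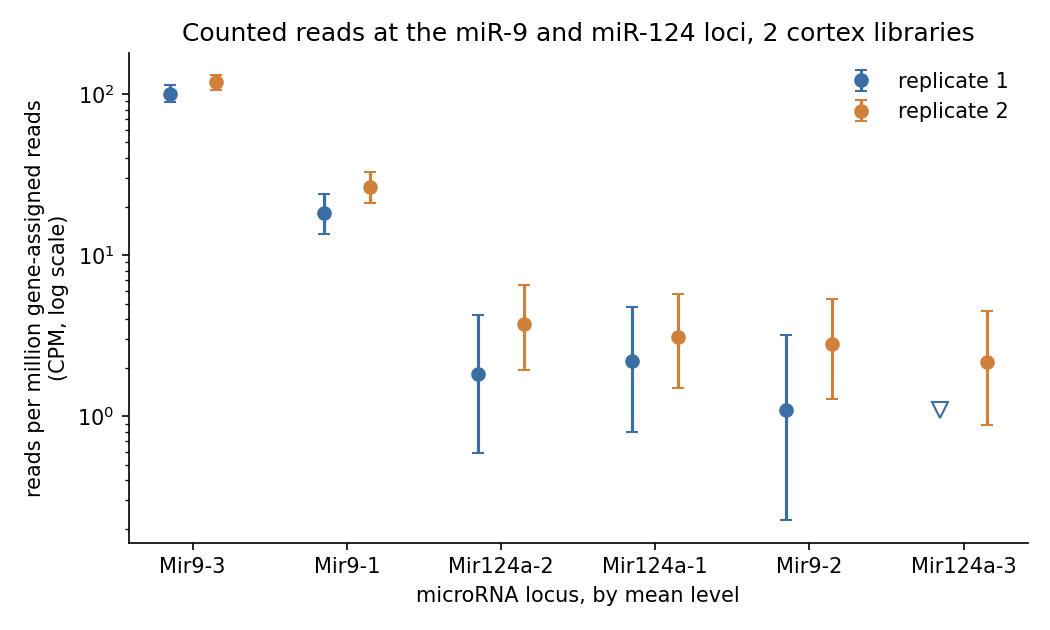
Counted reads at the 6 loci in CPM (log scale), ordered by mean level, with replicate 1 in blue and replicate 2 in orange and bars for exact Poisson 95% intervals. The open triangle is the level that 3 reads would give, drawn for Mir124a-3 with 0 reads in replicate 1; Mir9-3 and Mir9-1 stand above the other 4 loci in both libraries.

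Mir9-3 was the highest of the 6 loci, with 275 reads (100 CPM) in replicate 1 and 379 reads (118 CPM) in replicate 2, a mean of 109 ± 12.6 CPM. Mir9-1 followed with 50 reads (18.2 CPM) and 85 reads (26.5 CPM), a mean of 22.4 ± 5.83 CPM. Mir9-3 had 5.5 times the reads of Mir9-1 in replicate 1 and 4.46 times in replicate 2, and their intervals did not overlap in either library. Mir9-1 in turn lay above the next locus with no overlap in either library.

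The other 4 loci could not be ordered by their intervals. Mir124a-2 had 5 and 12 reads in replicates 1 and 2, a mean of 2.78 ± 1.35 CPM. Mir124a-1 had 6 and 10 reads, a mean of 2.65 ± 0.656 CPM, and Mir9-2 had 3 and 9 reads, a mean of 1.95 ± 1.21 CPM. Between neighbours in this order the intervals overlapped in both libraries, and Mir124a-1 stood above Mir124a-2 in replicate 1 and below it in replicate 2.

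Mir124a-3 had 0 reads in replicate 1, where the exact Poisson interval ends at 3.69 reads (1.35 CPM), and 7 reads (2.18 CPM) in replicate 2. Its interval in replicate 2, 2.81 to 14.4 reads, overlapped that of Mir9-2 (4.12 to 17.1). No test between loci was made, and with so few reads the overlap of intervals does not settle whether the 3 miR-124 loci differ.

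**Figure D2:**
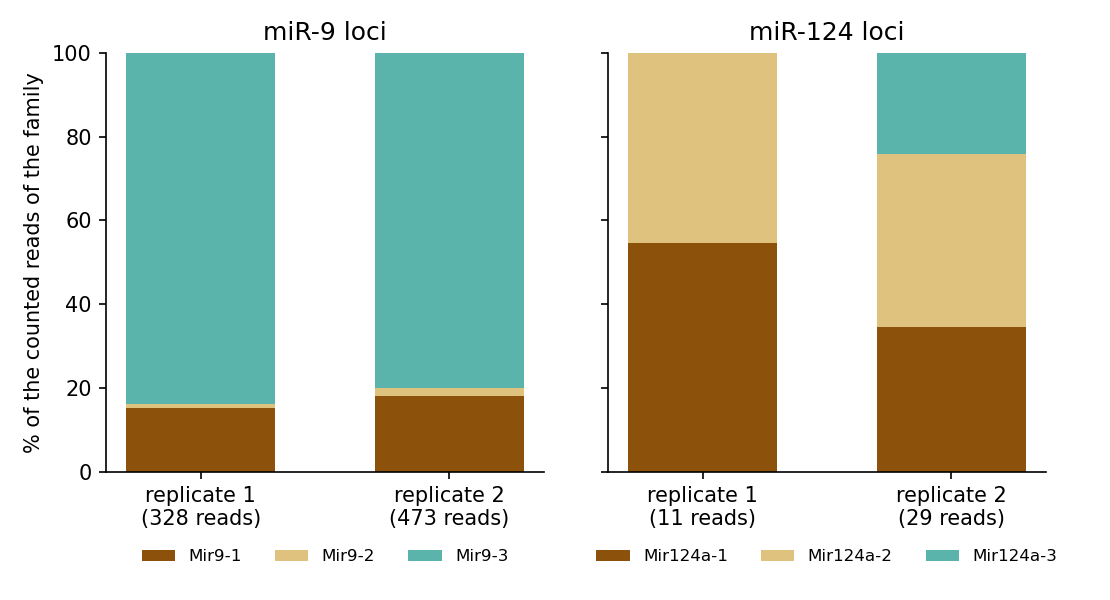
Share of each family's counted reads at each of its 3 loci (percent), per library, with the number of reads under each bar. Mir9-3 makes up 83.8% and 80.1% of the miR-9 reads, while the miR-124 bars rest on 11 and 29 reads.

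In both libraries most counted miR-9 reads lay at Mir9-3, and the interval of each locus's share overlapped between the libraries. Mir9-3 held 83.8% of the counted miR-9 reads in replicate 1 (exact Clopper-Pearson 95% interval 79.4% to 87.7%). In replicate 2 it held 80.1% (76.2% to 83.6%), and the mean was 82.0 ± 2.63%. Mir9-1 held 15.2% (11.5% to 19.6%) and 17.97% (14.6% to 21.7%). Mir9-2 held 0.915% (0.189% to 2.65%) and 1.90% (0.874% to 3.58%), the smallest share in both. These are shares of reads that could be placed at 1 locus, not of what each locus produced. The loci differ in how far they can be told from their copies, as given below.

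The miR-124 shares had wide intervals. Mir124a-1 held 54.5% (23.4% to 83.3%) of 11 reads in replicate 1 and 34.5% (17.9% to 54.3%) of 29 in replicate 2. Mir124a-2 held 45.5% (16.7% to 76.6%) and 41.4% (23.5% to 61.1%). For Mir124a-3, 0 of 11 reads allowed a share of up to 28.5% (upper bound of the same interval), and replicate 2 gave 24.1% (10.3% to 43.5%). The intervals of the 3 loci overlapped in both libraries.

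Strand decided the count of Mir9-1. In the column counted without regard to strand Mir9-1 had 0 reads in both libraries, against 50 and 85 on its own strand. The predicted microRNA locus Gm25641 (ENSMUSG00000092876.1, chr3:88215589-88215696) lies on the minus strand over the whole Mir9-1 hairpin, which makes Mir9-1 1 of 64 loci with an annotated partner on the other strand. Gm25641 had 0 reads on its own strand, and its count on the opposite strand was 50 and 85, equal to the counts of Mir9-1.

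The other 5 loci have no such partner in this annotation. Their counts without regard to strand equalled those on the RNA strand, except for Mir124a-3, which gained 1 read in replicate 2. That read was the single one found on the opposite strand at any of the 6 loci.

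How far each hairpin can be told from its copies was measured by sequence alone, without the reads. Each stretch of 22 nt of a hairpin was looked up on both strands of all 2202 annotated hairpins, and counted as standing at 1 place when all its matches had the same genome position. In Mir9-3, 60 of 69 windows (87.0%) stood at 1 place, in Mir9-1 44 of 68 (64.7%) and in Mir9-2 27 of 51 (52.9%). In Mir124a-2 the share was 70.5%, in Mir124a-1 67.2% and in Mir124a-3 57.4%.

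Within miR-9 the order of these shares was that of the counted reads. Within miR-124 it was that of the mean CPM, though the intervals of those loci overlapped. Between the families it was not, since Mir9-1 had more reads than Mir124a-1 and Mir124a-2 and a smaller share. Annotated length ran in the same order within each family. It was 90, 89 and 72 nt for Mir9-3, Mir9-1 and Mir9-2, and 109, 85 and 68 nt for Mir124a-2, Mir124a-1 and Mir124a-3. A shorter hairpin has fewer windows beside the shared stretches, so the shares depend on length too. The longest stretches common to all 3 hairpins of a family measured 26 and 25 nt for miR-9, each around an arm, and 31 and 26 nt for miR-124. In windows of 28 nt all 63 of Mir9-3 stood at 1 place, against 73.3% of those of Mir9-2. Places outside the annotated hairpins were not analysed here, and the part of sequence sharing in the counts was not tested.

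**Figure D3:**
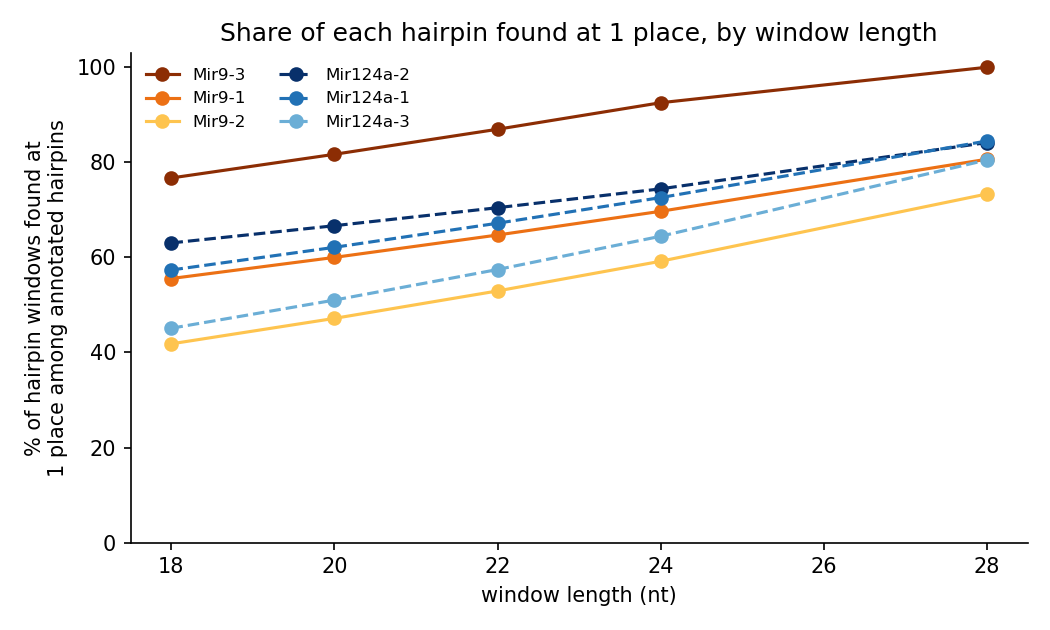
Percent of the windows of each hairpin that stand at 1 place among annotated hairpins, against window length (nt), with miR-9 loci as solid and miR-124 loci as dashed lines. Mir9-3 is highest at every length and reaches 100% at 28 nt, and Mir9-2 is lowest.

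The letters beside the arms, printed above, show where the miR-9 loci part. For the 5p arm of Mir9-3, 1 further base on the 5′ side gave a sequence found at 1 place, and 4 further bases on the 3′ side did. For Mir9-1 the same arm needed 8 bases on the 5′ side or 4 on the 3′ side. For Mir9-2 all 7 annotated bases on the 5′ side were shared with Mir9-1, and 4 bases on the 3′ side were needed.

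The 3p arm gave the same contrast. Mir9-3 needed 3 further bases on the 5′ side or 2 on the 3′ side, while Mir9-1 and Mir9-2 each needed 7 on the 5′ side or 6 on the 3′ side. How reads were aligned is not given, and exact matching is assumed here. A read given to a miR-9 locus then has to carry bases that the annotated arm does not. Otherwise it has to come from the loop or the ends of the hairpin. The deposited counts do not say which part of the hairpin a read came from.

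Whether a locus was counted at all was compared with the rest of the annotation. Of the 6 loci 2, Mir9-1 and Mir9-3, had at least 10 reads in each library, against 389 of all 2202 loci (17.7%). All 6 share a stretch of at least 20 nt with another locus, and 82 of the 1107 loci that do so reached 10 reads in each library (7.41%), against 307 of the 1095 that do not (28%). Of the 235 loci whose share of 22 nt windows at 1 place lay within the range of the 6 loci, 16 reached it (6.81%). The remaining sharing loci split into 220 with a higher share, of which 63 reached it (28.6%), and 652 with a lower share, of which 3 did (0.46%). With 6 loci, a count of 2 says little about how they stand to these shares. The sharing loci include predicted ones with 0 reads and 0 windows at 1 place. Whether such loci are expressed in this tissue was not tested.

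In the ranking of all loci by mean CPM, Mir9-3 was at place 207 and Mir9-1 at place 285. Mir124a-2, Mir124a-1, Mir9-2 and Mir124a-3 were at places 442, 447, 479 and 542, among loci with a few reads. The loci nearest to Mir9-3 in log2(CPM + 1) over the 2 libraries were Mir493 (281 and 366 reads), Mir376b (309 and 417) and Snord43 (255 and 326), at distances of 0.059, 0.22 and 0.24 log2 units. Those nearest to Mir9-1 were Mir3061 (51 and 86 reads), Mir24-2 (50 and 89) and Mir92-2 (52 and 76), at 0.032, 0.064 and 0.16. Mir376b, Mir24-2 and Mir92-2 share at least 20 nt with another locus too. Likeness over 2 libraries is one of level and describes no more than that.

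**Figure D4:**
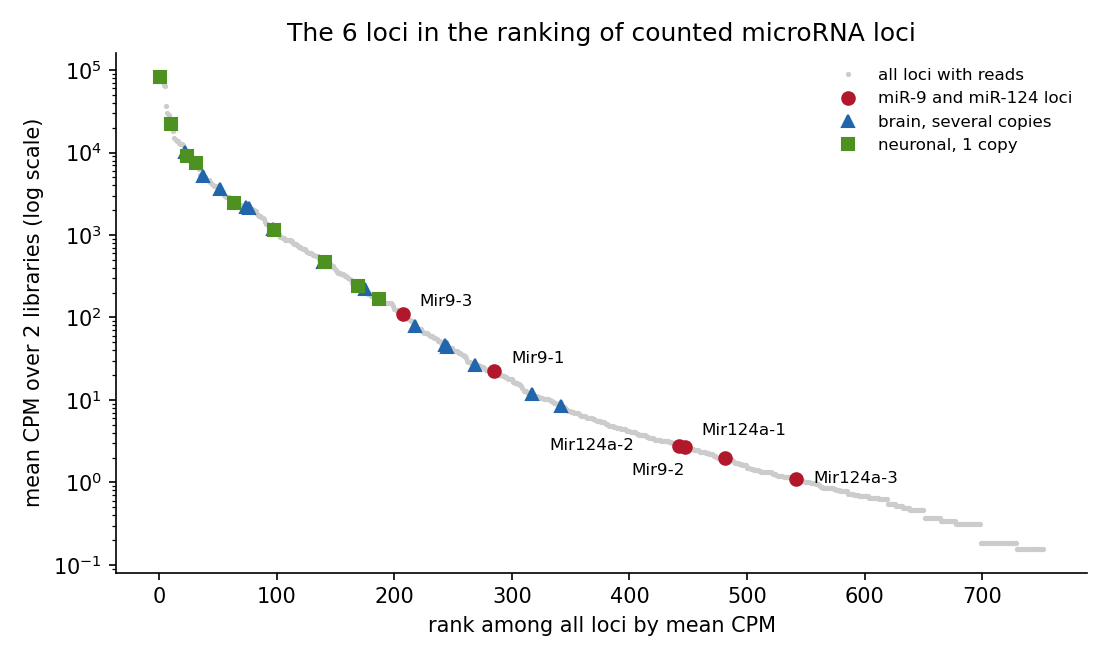
Mean CPM (log scale) of all loci with reads against their rank, with the miR-9 and miR-124 loci in red, brain loci with several copies (2 of them oligodendrocyte loci) in blue and neuronal loci with 1 copy in green. Mir9-3 and Mir9-1 stand among the lower blue points, and the other 4 red points lie below all of them.

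Other microRNAs known from the brain that have several copies were set beside the 6 loci. The list held 14 loci of miR-128, miR-129, miR-138, miR-7a, miR-219a, miR-218 and miR-135a. Each annotated arm shared between loci of this list stood at 2 places among annotated hairpins, against 3 places for the miR-9 arms. Of the 6 loci 2 reached 10 reads in each library and the median of their mean CPM was 2.72 (range 1.09 to 109), while all 14 of the list reached it, with a median of 350 CPM (range 8.40 to 10267). Mir219a-1 and Mir219a-2 of this list are oligodendrocyte loci and are counted among those markers above. Without them, a choice made after seeing the data, all 12 remaining loci reached the minimum, with the same median. Over all 2202 loci the median was 0 CPM.

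The 14 loci were led by Mir128-1, known to restrain neuronal excitability, with 14732 and 48629 reads in replicates 1 and 2, and by Mir138-1, known from dendritic spines of rat neurons, with 18603 and 11725. Mir128-2 had 6095 and 15794 reads and Mir138-2 had 6908 and 5954. At the low end, 6 of the 14 had a lower mean CPM than Mir9-3 and 2 had a lower one than Mir9-1. The list was chosen with these counts known, so its level is a description.

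The copies in that list differ from one another in more of their sequence. Between 90.4% and 98.9% of their 22 nt windows stood at 1 place, against 52.9% to 87.0% in the 6 loci, so the ranges did not overlap. Of the 6 annotated arms at the 3 miR-9 loci, 0 stood at 1 place, against 12 of the 26 annotated arms of the comparison loci. Those arms lay at 12 of the 14 comparison loci. No entry was found under the names used here for the miR-124 loci, and no other search was made, so their arms are not compared. In Mir128-1 and Mir128-2 the arm at 1 place is the 5p arm, and in Mir138-1 and Mir138-2 the 3p arm. Mir129-1 and Mir219a-2 were the 2 loci without one, and they were counted at 477 ± 151 and 2096 ± 1758 CPM. Only 1 arm of each is annotated, the 5p arm, which stands at 2 places. Their 3p arms have no entry and could not be compared, so these 2 loci are not shown to lack an arm at 1 place. Of their 22 nt windows, 47 of 52 and 75 of 76 stood at 1 place.

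**Figure D5:**
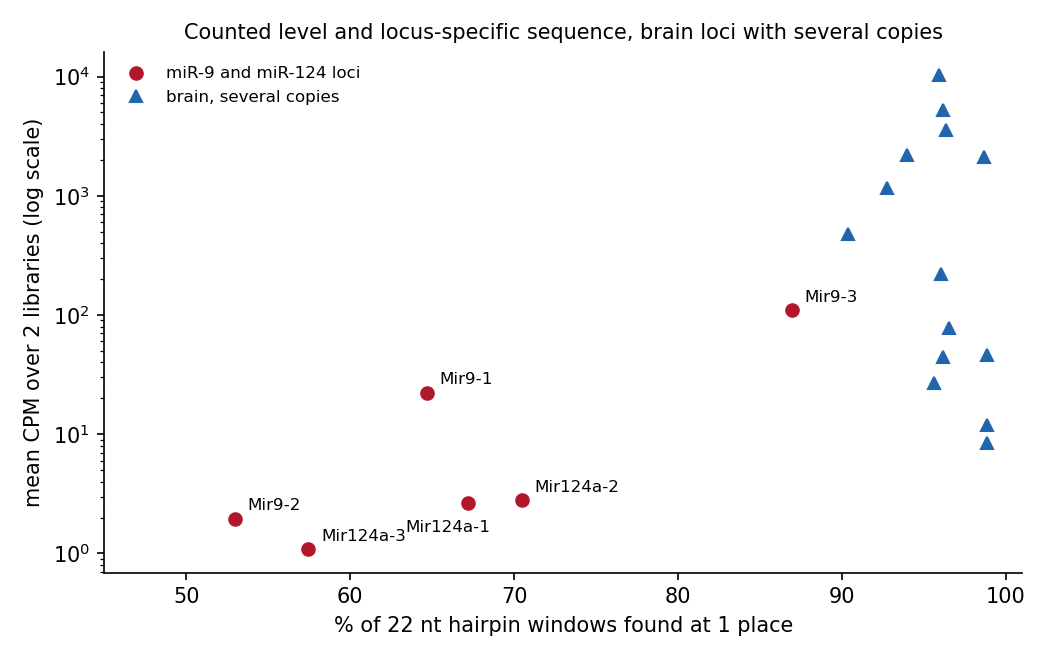
Mean CPM (log scale) against the percent of 22 nt hairpin windows at 1 place, for the miR-9 and miR-124 loci in red and 14 brain loci with several copies in blue, 2 of them oligodendrocyte loci. The red points run from 52.9% to 87.0% and the blue points from 90.4% to 98.9%, where mean CPM range from 8.40 to 10267.

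Neuronal microRNAs listed with 1 copy were counted higher still. The 10 listed loci had a median of 1794 CPM, from 0 for Mir344 to 83247 for Mir139, against 2.72 CPM for the 6 loci. Besides Mir139 the list was led by Mir433, Mir132, an activity-regulated microRNA, and Mir137. Mir132, Mir137, Mir134 and Mir212 of this list are also the 4 neuronal markers given above. Mir344 shares at least 20 nt with another locus, so it does not stand for a single copy, and the other 9 share none.

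The 2 libraries were then compared at the loci with enough reads. At Mir9-1 the log2 ratio of replicate 1 over replicate 2 was -0.37 (95% interval -0.90 to 0.15), and at Mir9-3 it was -0.063 (-0.29 to 0.16). Neither passed the two-sided exact binomial test on TMM-scaled reads with Benjamini-Hochberg adjustment over 389 loci (adjusted p = 0.227 for Mir9-1 and 0.702 for Mir9-3), which 227 of the 389 loci (58.4%) did. The test compares these 2 libraries and covers counting error only. Passing also depends on the number of reads, so not passing does not show a smaller difference than at other loci. In mean CPM, 27.0% of the 389 loci lay at or below Mir9-1 and 47.0% at or below Mir9-3.

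All 6 loci had fewer CPM in replicate 1 than in replicate 2, as did 58.2% of the 752 loci with a read in either library. The same direction held for all 6 loci under TMM and DESeq2 scaling, against 51.7% of the 752 loci under TMM. When loci with few reads were tested too, Mir124a-3, at 0 and 7 reads, had an unadjusted p of 0.0213 and an adjusted p of 0.0642 by the same exact binomial test. The members share sequence and libraries, so their common direction is not a count of independent observations.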

How the data were processed

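The authors deposited raw whole-number counts for each microRNA gene, 1 file per library, and the accompanying file lists name assembly mm10 and annotation M21. How reads were trimmed, aligned and counted is not given in the sources used. Of the 3 unnamed count columns, the third column of the file (RNA strand) was used, as read from its values. The 4 rows without a gene (unmapped, several places, no feature, ambiguous) did not enter library sizes and made up 64.6% and 66.7% of the reads of replicates 1 and 2. CPM are reads per 1000000 assigned reads. All 2202 identifiers matched GENCODE M21, which gave positions, hosts and hairpins.

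Libraries were compared with an exact binomial test on TMM sizes (edgeR 4.0.16, R 4.3.3) over loci with at least 10 reads in each, adjusted p under 0.05. The procedure was tested on simulated counts with counting error and set changes at 200 loci, where 1.41% of 213 unchanged loci passed. Of the changed loci that were tested, 71.7% of 99 with a log2 change of 0.5 passed, and 90.6% of 96 with a change of 1. The simulated counts held no other variation between libraries, so they say nothing about how the procedure handles it. Intervals are exact (scipy 1.17.1). Alternatives were DESeq2 1.42.0 size factors, other denominators, filters, count column, window lengths and single libraries. Members, lists and tests were chosen with earlier results of these data known. Named loci were the 6 members, overlapping or sequence-sharing loci, the 3 nearest in level, and up to 4 of each comparison list; Mir129-1, Mir219a-2 and Mir344 were named after their values were seen.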

Additional observations from a re-analysis of the deposited data

How the results depend on the processing

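Summed levels kept their value within 1 SD under TMM, DESeq2 size factors and reads mapped to several places as the denominator. They also did so in the column without strand, but the miR-9 sum there, 119 CPM, held 0 reads of Mir9-1. Mir9-3 was at 117 CPM in that column, against 109 CPM on the RNA strand. Per 1000000 of all reads, miR-9 was 45.7 and miR-124 2.22, by construction of the larger denominator. Leaving out a replicate gave 120 to 147 CPM for miR-9, 4.01 to 9.04 CPM for miR-124, 80.1% to 83.8% for the share of Mir9-3 and ratios of miR-9 to miR-124 of 16.3 to 29.8. Without strand the share of Mir9-3 was 98.3%, since the reads of Mir9-1 are then set aside. The number of loci past the read minimum was 5 at 1 read and 4 at 5 reads, 1 without strand, and 2 to 4 with a replicate left out (4 without replicate 1). Windows at 1 place, 68.0% over the 6 hairpins at 22 nt, were 58.2%, 62.9%, 73.3% and 84.6% at 18, 20, 24 and 28 nt. No member passed the library test under any of the 5 alternatives. The adjusted p of the exact binomial test ranged from 0.0618 to 0.287 for Mir9-1 and from 0.0664 to 0.757 for Mir9-3; scaled by library total, both had an unadjusted p under 0.05. Mir9-1 had no value in that test without strand. Of 30 alternative values of single loci with both libraries, 23 moved by less than 1 SD; a mean of 2 libraries moves by less than 1 SD by construction when 1 is left out. No paired analysis was possible because there is 1 group. Counts of 0 to 12 reads at 4 of the 6 loci limit what can be said of them.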
